A study of Mus musculus with 4 samples.

Results

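The clustered protocadherins are the genes whose symbol in the deposited count table starts with Pcdha, Pcdhb or Pcdhg. Chosen by name alone, with no expression filter, they numbered 58 of 54532 genes, with 14 in the alpha, 22 in the beta and 22 in the gamma cluster. They were followed in C3H10T1/2 cells, a mouse mesenchymal stem cell (MSC) line, in which mRNA was sequenced to ask how DNMT1, the maintenance DNA methyltransferase, bears on gene expression before and during early osteoblast (OB) differentiation. The cells received either a control siRNA or an siRNA against DNMT1 for 48 h. They were then left untreated (the groups control and siDNMT1) or kept for 3 days in OB medium (the groups OB and siDNMT1_OB), which held L-ascorbic acid at 50 µM, β-glycerophosphate at 10 mM and dexamethasone. Each group held 1 library of 1 cell line, and the labels name no replicate, so no difference below has a replicate check. The intervals are 95% intervals of the read counts, which carried no molecular identifiers, and they cover counting error only.

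Clustered protocadherins are cadherin-like adhesion proteins of the cell surface, best known from neurons, where each cell displays its own combination of isoforms and homophilic binding between matching combinations lets a neuron tell its own branches from those of other cells. In the alpha and gamma clusters each member has its own large first exon and promoter, spliced to a set of constant exons that encode a cytoplasmic domain common to the cluster, whereas the beta genes consist of a single exon without a constant part. Promoter choice is known to depend on CTCF, cohesin and DNA methylation of the promoters, and the C-type members (Pcdhac1, Pcdhac2, Pcdhgc3, Pcdhgc4 and Pcdhgc5) are regulated apart from the rest.

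The deepest library, control, held 27367792 gene counts and the shallowest, OB, 22296046. A gene with at most 3 counts was taken as not detected, a limit of between 0.111 and 0.133 CPM (counts relative to the scaled library total). Dnmt1 itself, the target of the siRNA, had 7195 counts in control and 3375 in siDNMT1. Its counts were 1931 in OB and 2492 in the library labelled siDNMT1_OB. The log2 fold change was −1.01 in the untreated pair (siDNMT1 against control) but 0.13 in the OB pair (siDNMT1_OB against OB), so Dnmt1 mRNA was not lower where the label of the OB pair states a knockdown. The labelled cell type was checked next. All 11 mesenchymal markers examined were over 3 counts in every library. The epithelial and blood markers summed to at most 1.03 and 2.70 CPM. The 4 endothelial markers summed to 2.25 CPM for control and 6.21 for siDNMT1, and to 3.18 for OB and 7.81 for the library labelled siDNMT1_OB, mostly from Tek, which had 51, 152, 63 and 203 counts and so moved with the siRNA label. Of the osteoblast markers, Alpl, Bglap and Bglap2 had at most 3 counts in any library while Runx2 had between 1644 and 2459. Ibsp had 1, 3, 6 and 17 counts and Sp7 5, 1, 8 and 4 in control, siDNMT1, OB and the library labelled siDNMT1_OB. In the same order Spp1 had 14862, 5270, 4226 and 7261 counts and Phex 256, 116, 687 and 168. Of the neuron markers Snap25 had 0 counts in every library and Rbfox3 and Syt1 at most 1. Of the 9 neuron markers 4 or 5 were over 3 counts in each library. They summed to 131 CPM for control and 167 for siDNMT1, and to 283 for OB and 339 for the library labelled siDNMT1_OB, most of it from Map2 (2517, 3156, 6058 and 8306 counts). Stmn2 (787, 723, 268 and 582 counts) and Tubb3 (217, 360, 44 and 126 counts) were lower in OB than in control, where Map2 was higher. In the OB pair Tubb3 and Gap43 (26, 47, 17 and 46 counts) met the call rule described below as higher, and the median log2 fold change of the 4 tested neuron markers was 0.61 (untreated pair) and 0.99 (OB pair). The part of these markers in the members' values was not tested.

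All 58 members lie on the plus strand of chromosome 18 (GRCm38), the alpha cluster from 36930184 to 37187661, the beta cluster from 37264938 to 37524479 and the gamma cluster from 37661793 to 37841873. In the gene models of the table, the alpha members had 2860 bases of exon in 3 blocks in common, at some positions all 14 of them, and the gamma members 2119 bases in 3 blocks, at some positions all 22. Exon that no other gene covers had a median length of 2475 bases in alpha, 3714 in beta and 2587 in gamma members. All 22 beta genes were a single exon block, and 19 of them overlapped no other gene. Beta transcripts were also distinct in sequence, since a median of 0.207% of their 100-base windows occurred in another member, against 55.1% in alpha and 43.6% in gamma. How reads in the constant exons were assigned is not given in the sources used here. Several alpha members and Pcdhga10 had 0 counts in every library although they contain the constant exons, so constant-exon reads were not credited to every member, and the counts of alpha and gamma members come from an unknown part of their transcripts.

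**Figure D1:**
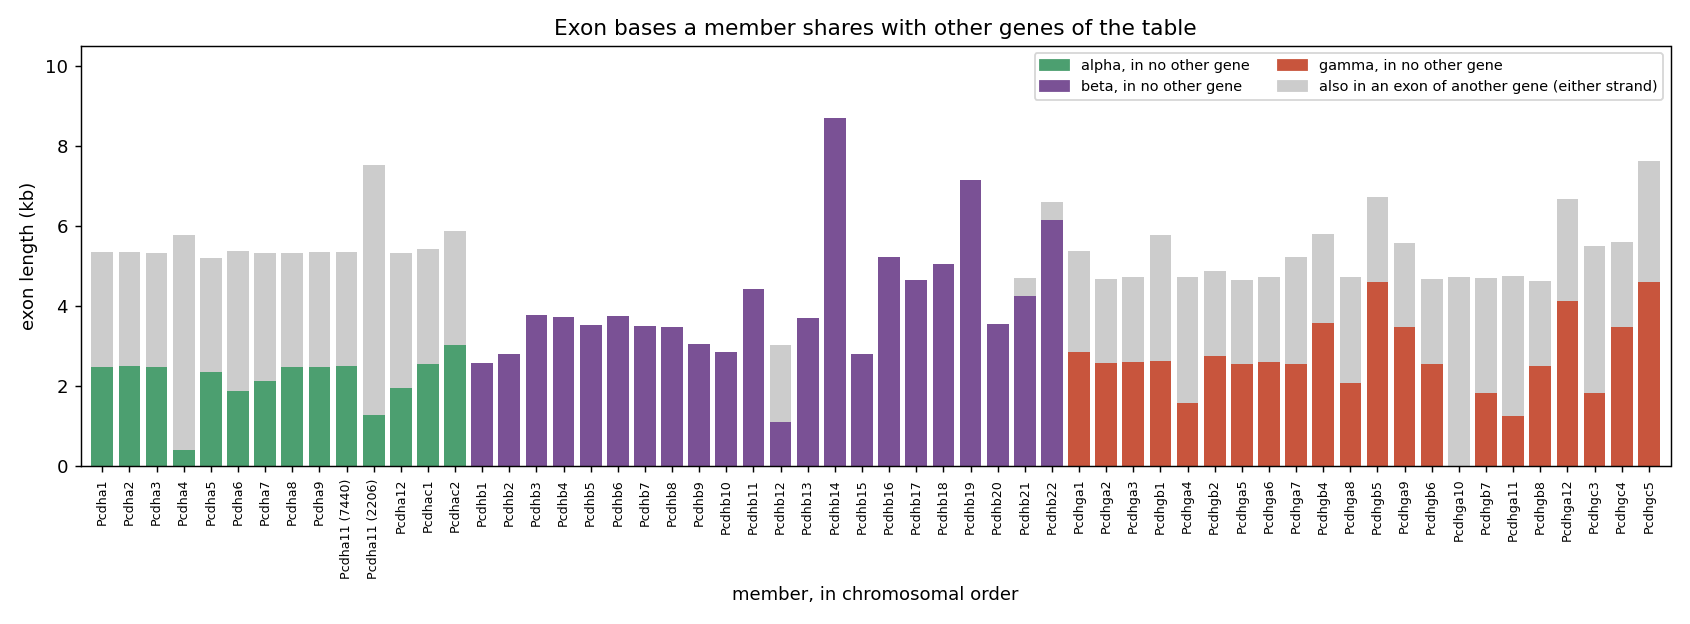
Exon length in kilobases of each of the 58 members in chromosomal order, split into bases that no other gene of the table covers (coloured by cluster) and bases that also lie in an exon of another gene on either strand (grey). Beta genes were mostly unshared, while alpha and gamma members shared their constant exons, and Pcdhga10 had no unshared base.

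Alpha genes were at or near the limit of detection, and their sum lay far below those of the beta and gamma clusters. Summed over the 14 members, the untreated libraries had 3 counts (control) and 13 (siDNMT1) and the induced ones 13 (OB) and 21 (labelled siDNMT1_OB), and 8 of the 14 had 0 counts in all 4 libraries. Pcdhac2, the alpha member closest to the constant exons, held all alpha counts of the untreated cells (3 of 3 in control and 13 of 13 in siDNMT1). In the induced cells it held 6 of 13 and 9 of 21 counts. The 12 alpha genes other than the C-type members had a sum of 0 counts in control and in siDNMT1 (3 counts would be 0.111 and 0.117 CPM), but 7 counts in OB and 12 in the library labelled siDNMT1_OB. These came from Pcdha3, Pcdha7, Pcdha9, Pcdha12 and 1 of the 2 genes named Pcdha11 (ENSMUSG00000007440), with at most 6 counts each. Pcdhac1 had 0 counts in every library.

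In the beta cluster 21 of 22 members were over 3 counts in at least 1 library and 17 in all 4, Pcdhb1 alone having no count. Its summed counts were 1998 for control and 2393 for siDNMT1, and after induction 3810 for OB and 4916 for the library labelled siDNMT1_OB. Pcdhb16 (ENSMUSG00000047910) was the most abundant, with 641, 673, 1126 and 1258 counts in the same order. It held 32.1% of beta counts in control (95% Clopper-Pearson interval 30.0 to 34.2), 28.1% in siDNMT1, 29.6% in OB and 25.6% (24.4 to 26.8) in the library labelled siDNMT1_OB. Pcdhb17 followed with 358, 381, 620 and 632 counts.

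Gamma genes summed to 2542, 2433, 3497 and 3534 counts, and 21 of 22 were over 3 counts in at least 1 library and 19 in all 4. Pcdhgc3 (ENSMUSG00000102918), a C-type gene, dominated with 1870 and 1653 counts in the untreated libraries (control and siDNMT1) and 2348 and 2391 in the induced ones (OB and labelled siDNMT1_OB). Its share of gamma counts was 73.6% (71.8 to 75.3) in control and between 67.1% and 67.9% in the other 3 libraries. Its own exon overlaps BC037039 over 1559 bases, and since the use of strand in counting is not given, reads of both cannot be told apart there. BC037039 itself had between 23 and 45 counts. The other C-type genes were far lower, at 28, 36, 61 and 69 counts for Pcdhgc4 and 42, 43, 58 and 75 for Pcdhgc5.

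Levels between genes can be compared only per length. Scaled to each gene's unshared exon, the mean over the 4 libraries was 44.8 CPM per kb for Pcdhgc3, 7.02 for Pcdhb16, 6.60 for Pcdhgb7, 4.24 for Pcdhb17, 2.47 for Pcdhgb2, 2.42 for Pcdhb20, 2.07 for Pcdhga6 and 1.87 for Pcdhb15. This scale assumes that all counted reads fell in unshared exon, which cannot be checked for the gamma members. The order also differed between libraries. In OB, Pcdhgb7 had 9.92 CPM per kb and Pcdhb16 9.53. In the library labelled siDNMT1_OB, Pcdhgb2 had 2.60, below Pcdhb20 with 3.18 and Pcdhga6 with 3.25. Levels also followed position in the beta cluster, a split drawn after the values were seen and therefore not tested. In control the first 13 genes (Pcdhb1 to Pcdhb13) had between 0 and 0.366 CPM per kb and the last 9 (Pcdhb14 to Pcdhb22) between 0.711 and 4.52. Both groups were also separate in siDNMT1 and in OB. In the library labelled siDNMT1_OB they met, with 1.58 CPM per kb for Pcdhb9, the highest of the first 13, and 1.55 for Pcdhb21, the lowest of the last 9.

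**Figure D2:**
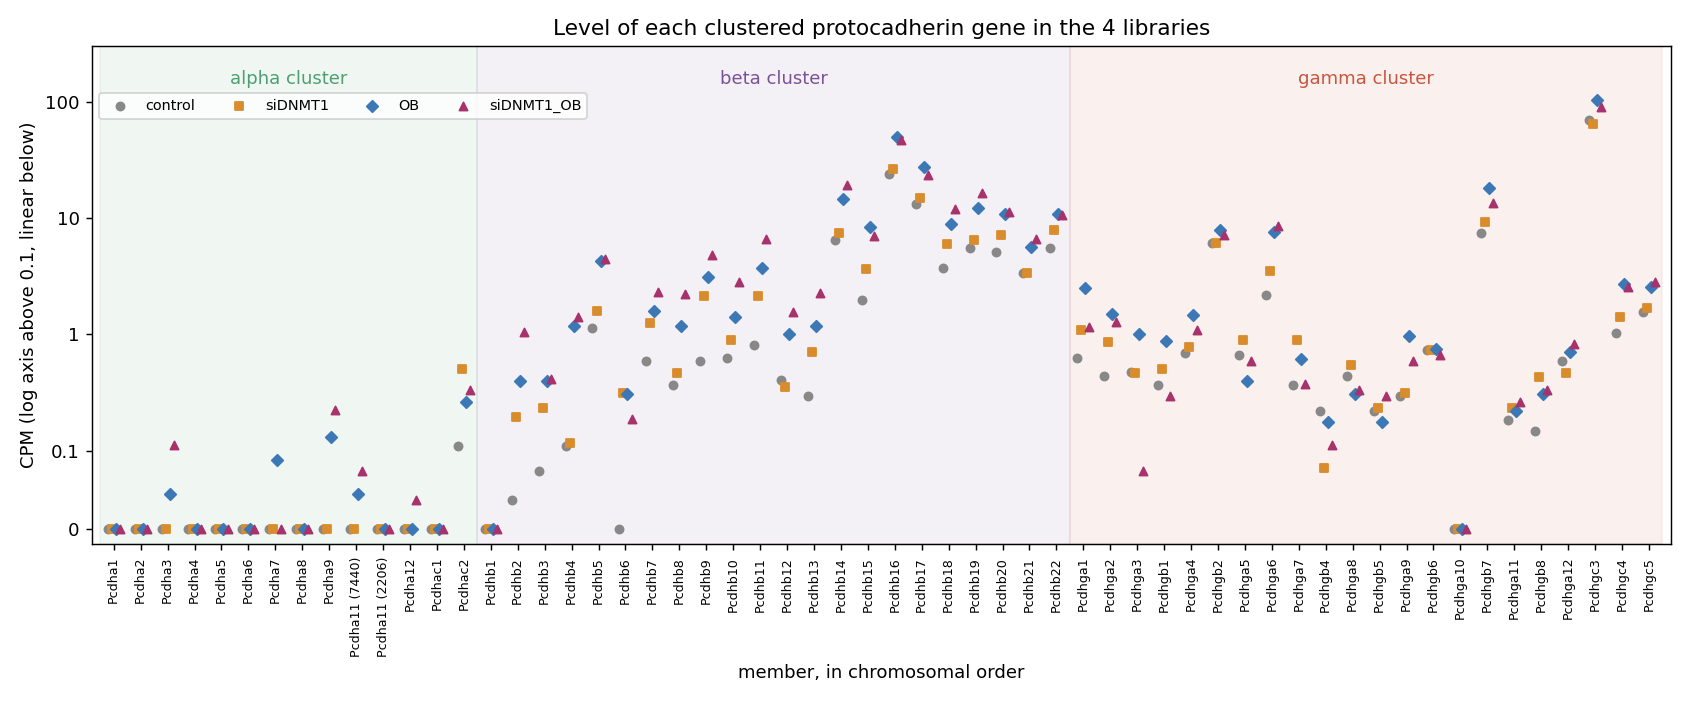
CPM of every member in the 4 libraries, in chromosomal order, on an axis that is logarithmic above 0.1 CPM and linear below. Alpha members lay at or near 0, beta levels were higher in the part of the cluster from Pcdhb14 onward, and Pcdhgc3 stood above all others.

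Libraries with and without OB induction were compared first in cells with control siRNA (OB against control). The labels name no library of cells kept for 3 days without OB medium. In both inductions the medium and the time in culture therefore cannot be told apart. The beta cluster summed to 73.7 CPM in control and 168 in OB, a 2.29-fold difference (95% interval 2.17 to 2.42), and the gamma cluster to 93.7 and 155 CPM, a 1.65-fold difference (1.57 to 1.74). For the alpha sum, 3 and 13 counts gave a ratio of 5.20 with an interval from 1.43 to 28.4. By sign 21 of the 22 beta members were higher in OB and none was lower, Pcdhb1 having no count. Among gamma members 17 were higher and 4 lower. For comparison, 54.5% of all genes with a count in either library were higher in OB.

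Single genes met the call rule if the log2 fold change (CPM with a prior count of 2) reached 1 in size and if, in addition, the adjusted p of an exact binomial test on the reads, over all 13233 tested genes, was under 0.05. Such a test compares libraries, not conditions. The filter of a mean of 1 CPM kept 25 members, 16 beta and 9 gamma, and no alpha gene. Of these, 19 met the rule as higher in OB and 0 as lower, against 10.6% higher and 7.1% lower among all tested genes. The filter is a mean over all 4 libraries. In both untreated libraries 5 of the 25 (Pcdhb8, Pcdhb10, Pcdhb13, Pcdhga2 and Pcdhga4) were under 1 CPM, so that they were tested only through the induced ones. They include 4 of the 19. Pcdhb7 (0.590 CPM in control and 1.25 in siDNMT1) and Pcdhga1 (0.627 and 1.09) also had an untreated mean under 1 CPM. Both are among the 19 and were likewise tested only through the induced libraries. The median log2 fold change of the 25 was 1.24, and that of all tested genes 0.01. The 19 comprised 14 beta genes (Pcdhb5, Pcdhb7 to Pcdhb11 and Pcdhb13 to Pcdhb20) and 5 gamma genes (Pcdhga1, Pcdhga2, Pcdhga6, Pcdhgb7 and Pcdhgc4).

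Pcdhb9 had the largest change of those that met the rule. Its counts went from 16 to 71, a log2 fold change of 2.27 (1.61 to 3.29). Pcdhb11 rose from 22 to 84 counts (log2 fold change 2.09, 1.5 to 2.94) and Pcdhb15 from 54 to 188 (2.02, 1.62 to 2.53). These 3 genes were low in control, at 0.590, 0.811 and 1.99 CPM, so their ratios rest on few control counts. The most abundant beta genes, Pcdhb16 (23.6 CPM in control) and Pcdhb17 (13.2), rose less. Pcdhb16 rose by 1.07 (0.93 to 1.22) and Pcdhb17 by 1.05 (0.86 to 1.25) on the log2 scale. The interval of Pcdhb15 lies above those of Pcdhb16 and Pcdhb17.

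In the gamma cluster Pcdhga1 rose from 17 to 57 counts (log2 fold change 1.88, 1.21 to 2.88) and Pcdhga6 from 59 to 170 (1.75, 1.35 to 2.24). Pcdhgb7 rose from 203 to 409 counts (1.26, 1.03 to 1.52). Pcdhgc3 did not reach the size threshold, at a log2 fold change of 0.59 (0.50 to 0.68), an interval that excludes 0 and lies below those of Pcdhga1, Pcdhga6 and Pcdhgb7. Without Pcdhgc3 the summed gamma counts gave a log2 fold change of 1.04 in place of 0.72. Pcdhgb2, with 164 and 179 counts, had 0.38 (0.07 to 0.70), Pcdhga4, with 19 and 33 counts, had 0.98 (0.20 to 1.96), and Pcdhgb6, with 20 and 17 counts, had 0.03 (−1.0 to 1.03).

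Some members under the filter had large ratios in the inductions, in either direction. Pcdhb4 had 3 counts in control and 27 in OB, a ratio of 10.8 with a counting interval from 3.32 to 55.6, and 3 counts in siDNMT1 against 38 in the library labelled siDNMT1_OB, a ratio of 12.1 (3.85 to 61.4). Pcdhb2 had 1, 5, 9 and 28 counts. Its ratio of OB to control was 10.8, with an interval from 1.5 to 473. Pcdhb6 had 0 counts in control and 7 in OB, at least 2.80-fold higher when control is set to 3 counts. It had 8 counts in siDNMT1 and 5 in the library labelled siDNMT1_OB (log2 fold change −0.56, −2.70 to 1.05). Pcdhga7 had 10 counts in control and 14 in OB (log2 fold change 0.64, −0.53 to 2.08), but 23 in siDNMT1 and 10 in the library labelled siDNMT1_OB (−1.11, −2.50 to −0.14). Pcdhga5 had 18, 23, 9 and 16 counts in the 4 libraries, with intervals that included 0 in both inductions. Pcdhga3 had 13, 12, 23 and 2 counts.

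In the libraries labelled with DNMT1 siRNA (siDNMT1_OB against siDNMT1) the direction was the same for most members. As Dnmt1 mRNA was not lower in the former than in OB, this comparison rests on the label. The beta sum was 93.4 CPM in siDNMT1 and 184 in the library labelled siDNMT1_OB, 1.97-fold higher (1.87 to 2.07), and the gamma sum 94.96 and 132 CPM, 1.39-fold higher (1.32 to 1.46). By sign, 20 beta members were higher and 1 lower, and 14 gamma members were higher and 7 lower, against 52.2% higher among all genes with a count. The rule was met by 9 of the 25 tested members as higher and 0 as lower, against 6.82% and 2.7% of all tested genes. They were Pcdhb5, Pcdhb8 to Pcdhb11, Pcdhb13, Pcdhb14, Pcdhb19 and Pcdhga6, and each of these 9 also met the rule in OB against control, a comparison that shares no library with this one. The 9 are 100% of the members called higher here and 47.4% of those called higher there. For all tested genes the shares were 85.6% and 55.1%. The median over the tested members was 0.85 and over all genes 0.00. Of these 9, 3 (Pcdhb8, Pcdhb10 and Pcdhb13) passed the filter only through the induced libraries. Pcdhb8 went from 12 to 60 counts (log2 fold change 2.09, 1.35 to 3.29). Pcdhb14 rose from 190 to 515 counts (1.37, 1.13 to 1.62). Pcdhga1, which rose in cells with control siRNA, had 28 and 31 counts here (0.08, −0.70 to 0.87).

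**Figure D3:**
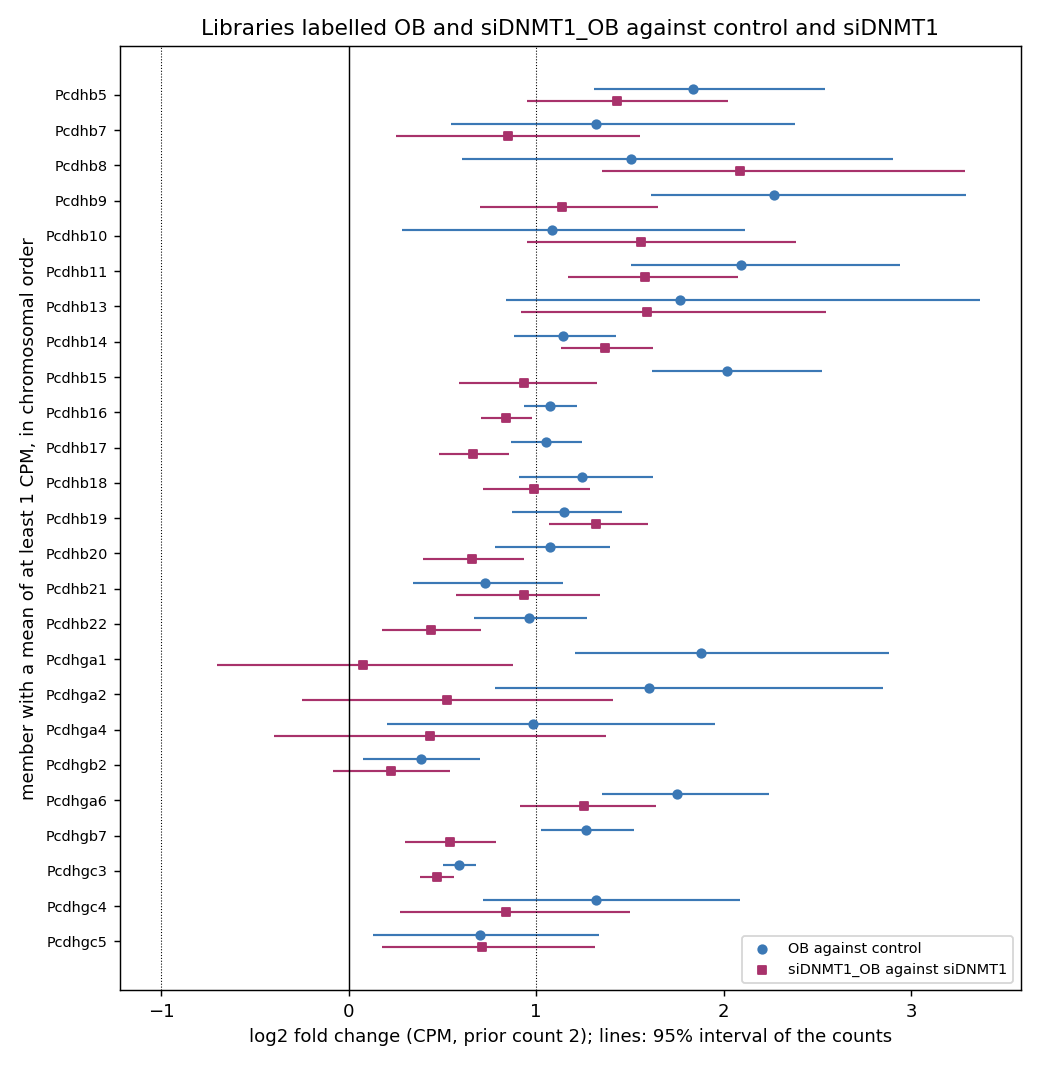
Log2 fold change of OB induction for the 25 members with a mean of at least 1 CPM, in the libraries with control siRNA (circles) and in those labelled with DNMT1 siRNA (squares), with 95% counting intervals; dotted lines mark the size threshold of 1. All 25 circles and all 25 squares lie above 0, and 19 and 9 of them met the rule.

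Beyond these 9, the 10 members that met the rule in OB against control but not in siDNMT1_OB against siDNMT1 had log2 fold changes between 0.08 and 0.99 in the latter. Pcdhb15 had a log2 fold change of 2.02 in the first and 0.94 (0.59 to 1.33) in the second comparison, Pcdhb18 1.24 and 0.99, and Pcdhb16 1.07 and 0.84. Pcdhga1 differed most, at 1.88 and 0.08. From the counts without the prior, the second value minus the first was −0.26 (−0.73 to 0.19) for Pcdhb18 and −0.24 (−0.43 to −0.04) for Pcdhb16. In an additive edgeR quasi-likelihood fit over the 4 libraries, which treats the induction as the same with either siRNA and leaves 1 residual degree of freedom, 16 of the 25 members were higher with OB induction and 0 lower at an adjusted p under 0.05, against 12% and 9.09% of all tested genes. Its siRNA term, which averages the untreated pair and the OB pair, was passed by 0 of 25 members in either direction and by 0% of all tested genes, with 4 members and 1148 genes at an unadjusted p under 0.05.

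The effect of DNMT1 siRNA in untreated cells was small in the sums of the beta and gamma clusters. Beta counts gave a log2 fold change of 0.34 (0.26 to 0.43), 1.27-fold, and gamma counts 0.02 (−0.06 to 0.10), or 0.30 (0.15 to 0.45) without Pcdhgc3, which held most of them. The alpha sum, 3 counts in control and 13 in siDNMT1, all of Pcdhac2, gave a ratio of 4.59 with an interval from 1.26 to 25.1. By sign 20 beta members were higher in siDNMT1 and 1 was lower (Pcdhb12, with 11 and 9 counts), and 17 gamma members were higher and 4 lower, where 51.3% of all genes with a count were higher. Of the 25 tested members 2 met the rule as higher and 0 as lower, against 1.84% and 1.31% of all tested genes. They were Pcdhb9, from 16 to 55 counts (log2 fold change 1.74, 1.04 to 2.77), and Pcdhb11, from 22 to 55 (1.32, 0.67 to 2.19). Both also met the rule in OB against control, which uses the same control library and so is not independent of this comparison. The median of the tested members was 0.46, and of all tested genes −0.00.

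Other beta genes had intervals above 0 without reaching the size threshold. These included Pcdhb7 with 16 and 32 counts (log2 fold change 0.99, 0.17 to 2.05), Pcdhb15 with 54 and 93 (0.84, 0.37 to 1.38) and Pcdhb18 with 101 and 152 (0.66, 0.30 to 1.05). The most abundant genes had intervals that included 0, at 0.15 (−0.01 to 0.31) for Pcdhb16 and −0.10 (−0.19 to 0.00) for Pcdhgc3. Pcdhga7, too low for the filter, had 10 and 23 counts (1.13, 0.16 to 2.52). Taken by position, in a split made after the values were seen and not tested, the first 11 beta genes summed to 118 counts in control and 240 in siDNMT1 (log2 fold change 1.11, 0.78 to 1.44), and the last 11 to 1880 and 2153 (0.28, 0.19 to 0.37). The first 11 also had the higher value in the other comparisons, which are built from the same 4 libraries and so are not independent of it, at 2.02 against 1.122 in OB against control, 1.49 against 0.91 in siDNMT1_OB against siDNMT1 and 0.57 against 0.06 in the OB pair.

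In the OB pair the beta and gamma sums differed in opposite directions. The library labelled siDNMT1_OB had 184 CPM of beta counts against 168 in OB (log2 fold change 0.12, 0.06 to 0.19), and 132 CPM of gamma counts against 155 (−0.23, −0.30 to −0.16). Over the 13 gamma members that overlap no gene outside the family the value was −0.13, with an interval that includes 0 (−0.29 to 0.04). These differences are small beside those of OB induction, and no replicate shows how far libraries of 1 group vary. Of the tested members 0 met the rule as higher and 1 as lower, against 2.34% and 1.35% of all tested genes. This was Pcdhga1, with 57 counts in OB and 31 in the library labelled siDNMT1_OB (−1.07, −1.80 to −0.47). Its level was 2.52 CPM for OB, against 1.16 for its partner in the pair. The untreated cells had 0.627 CPM with control siRNA and 1.09 with DNMT1 siRNA. Pcdhga1 thus passed the filter of a mean of 1 CPM only through OB, where it was high. The median was 0.06 for the tested members and 0.01 for all tested genes.

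Within the beta cluster the values of the OB pair split by gene. Pcdhb10 had 32 and 75 counts (log2 fold change 0.95, 0.37 to 1.63), Pcdhb13 27 and 61 (0.89, 0.26 to 1.64) and Pcdhb11 84 and 176 (0.81, 0.44 to 1.22). Pcdhb2, under the filter, had 9 and 28 (1.24, 0.27 to 2.66). By contrast Pcdhb17 had a log2 fold change of −0.21 (−0.38 to −0.05) and Pcdhb15 of −0.24 (−0.54 to 0.06). By sign 16 beta members were higher and 5 lower, and 8 gamma members were higher and 13 lower, where 49.4% of all genes with a count were higher. Pcdhgb7 had 409 and 358 counts (−0.43, −0.64 to −0.23) and Pcdhgc3 2348 and 2391 (−0.22, −0.30 to −0.13). Under the filter, Pcdhga3 had 23 counts in OB and 2 in the library labelled siDNMT1_OB, a ratio of 0.0735 with an interval from 0.0084 to 0.297, and Pcdhgb1 20 and 8 (−1.35, −2.96 to −0.32).

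**Figure D4:**
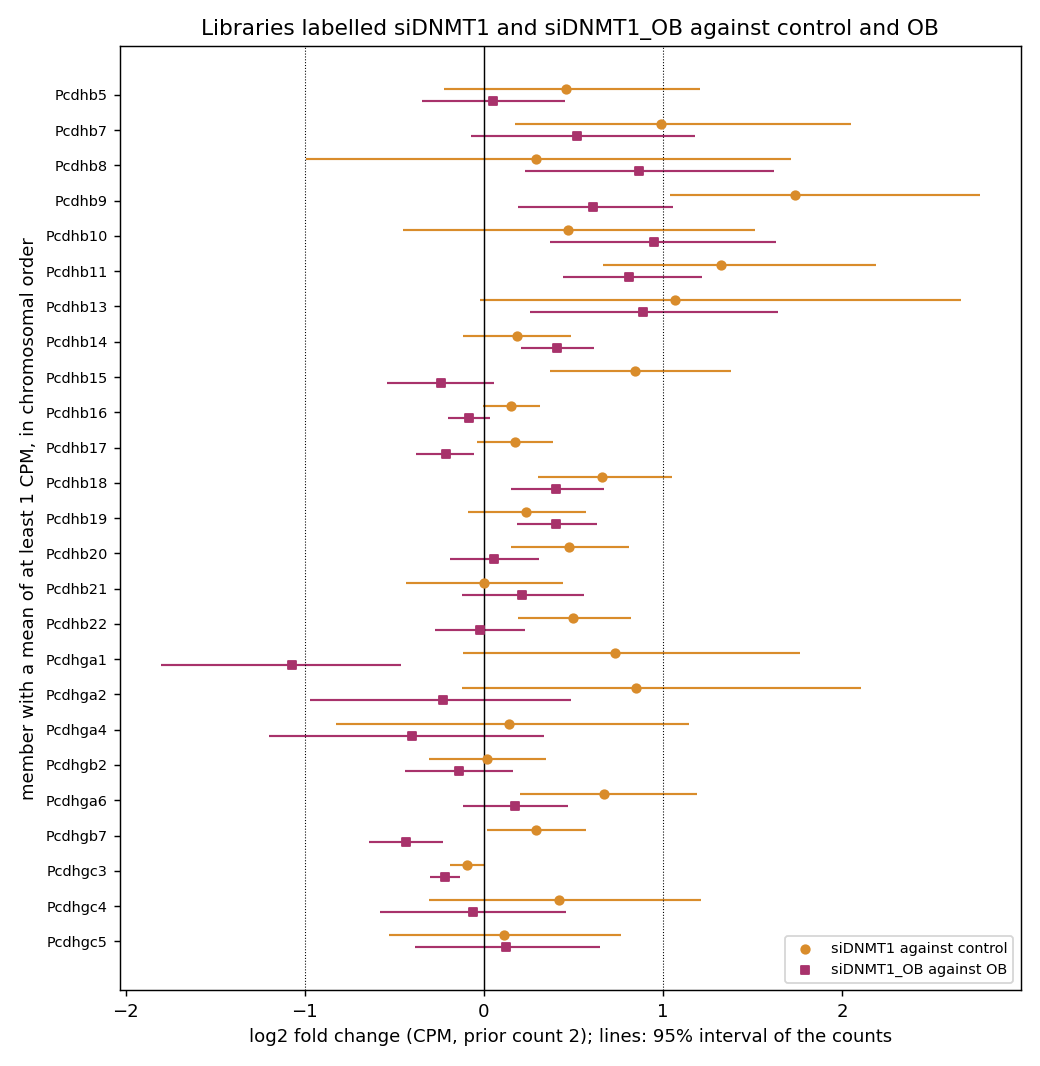
Log2 fold change between the libraries labelled with DNMT1 siRNA and those with control siRNA, for the 25 members with a mean of at least 1 CPM, in untreated cells (circles) and in OB-induced cells (squares, where Dnmt1 itself had a log2 fold change of 0.13), with 95% counting intervals; dotted lines mark the size threshold of 1. In untreated cells 24 of 25 points lie above 0, and in OB-induced cells 14 of 25.

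The untreated pair and the OB pair share no library, and their log2 fold changes were compared directly. By construction this difference equals the log2 fold change in siDNMT1_OB against siDNMT1 minus that in OB against control. It is thus the same contrast of the 4 libraries that was given above for Pcdhb16 and Pcdhb18, and not a second result. Computed from the counts without the prior of 2, so that it can differ from the difference of the values above, the OB pair minus the untreated pair was −0.22 (−0.32 to −0.11) on the log2 scale for the beta sum and −0.25 (−0.35 to −0.14) for the gamma sum. The gamma value depended on Pcdhgc3, being −0.55 (−0.74 to −0.35) without it and −0.12 (−0.25 to 0.00) for the 3 C-type genes. The same difference for Dnmt1 itself was 1.13 (1.03 to 1.24). Over the 25 tested members the counting interval of the difference lay below 0 for 8 and above 0 for 0, against 23.4% below and 27.4% above among all tested genes with counts in every library. The 8 were 6 beta and 2 gamma genes. Pcdhb15 had a difference of −1.11 (−1.71 to −0.52), Pcdhb9 of −1.24 (−2.25 to −0.29), Pcdhga1 of −1.92 (−3.10 to −0.76) and Pcdhgb7 of −0.73 (−1.08 to −0.38). These intervals leave out variation between cultures, so the differences hold for these 4 libraries and were not tested across conditions.

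**Figure D5:**
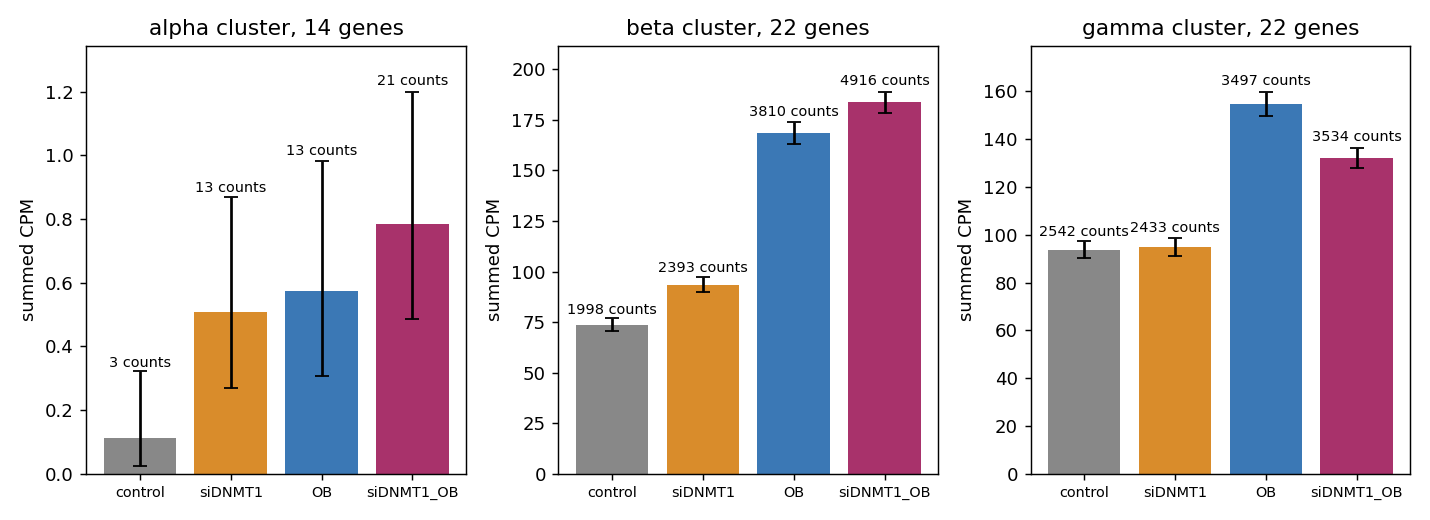
Summed CPM of the alpha, beta and gamma cluster in the 4 libraries, on separate axes that start at 0, with exact 95% Poisson intervals of the counts; the number of counts stands above each bar. Beta and gamma bars are higher in both induced libraries, and the alpha bars rest on 3 to 21 counts.

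Genes around and related to the clusters were set beside the members. For comparison, 2.34% of all tested genes met the rule as higher in the OB pair and 1.35% as lower. In OB against control the shares were 10.6% and 7.1%, in siDNMT1_OB against siDNMT1 6.82% and 2.7%, and in the untreated pair 1.84% and 1.31%. Of 52 other genes on the same stretch of chromosome 18 or within 300 kb of it, 18 passed the filter and 1 met the rule in a siDNMT1 comparison. This was E230025N22Rik, with 15 and 16 counts in the untreated libraries (control and siDNMT1) and 58 and 21 in the induced ones, lower in the OB pair (log2 fold change −1.61) and higher in OB against control (2.07). Its levels were 0.553, 0.625, 2.56 and 0.785 CPM in the same order, so it passed the filter only through OB, where it was high. The median log2 fold change of the 18 lay between −0.09 and 0.08 in the 4 comparisons. The non-clustered protocadherins, related adhesion genes that lie elsewhere in the genome or singly, had 5 of 12 genes tested. Pcdh1 met the rule as higher in the OB pair (60 and 180 counts, log2 fold change 1.32) and in both OB inductions, and Pcdh19, named after its values were seen, as lower in both inductions (6074, 4510, 2217 and 2343 counts). Pcdh1 was at 0.590 CPM in control and 0.937 in siDNMT1, so it passed the filter only through the induced libraries, where it was high.

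Of 24 genes known to act on the clusters (CTCF, cohesin and its loaders, DNA methyltransferases, TET enzymes, Smchd1 and histone methyltransferases among them), all were tested. In the untreated pair only Dnmt1 met the rule, as lower. In the OB pair only Uhrf1, which recruits DNMT1 to replicated DNA, did, as higher (934 and 2385 counts, log2 fold change 1.11). In OB against control Tet1, an enzyme that oxidises methylated cytosine, was higher (284 and 481 counts), while Dnmt1, Uhrf1 and the cohesin subunit Rad21 (9690 and 3843 counts) were lower. Tet1 and Rad21 are named after their values were seen. In siDNMT1_OB against siDNMT1 none of the 24 met the rule. Among all tested genes 1.31% were lower in the untreated pair and 2.34% higher in the OB pair. In OB against control 10.6% were higher and 7.1% lower, and in siDNMT1_OB against siDNMT1 6.82% and 2.7%. Of 20 cytoplasmic partners and processing enzymes of protocadherins (the WAVE complex, FAK and PYK2 kinases, ADAM10 and presenilins among them), 19 were tested. Of these, 1 met the rule in any comparison: Psen2, named after its values were seen, with 305 counts in control and 541 in OB (log2 fold change 1.08). In that comparison 10.6% of all tested genes were higher.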

How the data were processed

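The table deposited by the authors holds counts of reads per gene for 4 libraries, as whole numbers without normalization. The submitters' processing notes name Trimmomatic, HISAT2, featureCounts and mm10; versions, strand use and the treatment of reads that overlap several genes are not given in the sources used here. Every gene row had a name, and 0 sample columns were left unused. In R 4.3.3, TMM factors (0.991 to 1.014) were computed with edgeR 4.0.16 over genes with a mean of at least 1 CPM, which left 13233 of 54532 genes for the tests. CPM are counts over TMM-scaled totals. Log2 fold changes used a prior count of 2, and 95% intervals of ratios are exact conditional intervals of both counts without the prior. P-values of the two-sided exact binomial read test were adjusted by Benjamini-Hochberg over all tested genes. Counts of differences between the untreated pair and the OB pair used normal intervals of the log counts. Named are members with at least 100 counts in all, the C-type genes, members that met the rule, the 3 highest and 3 lowest log2 fold changes per comparison among those with 20 counts, and genes of the flanking, non-clustered, regulator and partner lists that met the rule in a siDNMT1 comparison. Other members, such as Pcdhb6 and Pcdhb12, were named after their values were seen. The members are all genes that match the name rule, but this gene family and the gene lists were chosen with earlier results of these data known. Exon sharing was computed from the coordinates of the table, which matched GENCODE M21 for all 58 members, and shared windows from the M21 transcripts. The count test was tested on simulated data. Alternatives used DESeq2 1.42.0 size factors, total counts, upper quartile factors, other prior counts and filters, an additive edgeR quasi-likelihood fit, and sums without single members.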

Additional observations from a re-analysis of the deposited data

Results flagged for a closer look

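Dnmt1 differed between the states: its log2 fold change between the libraries labelled with DNMT1 siRNA and control siRNA was −1.01 for untreated and 0.13 for OB-induced cells, with counting intervals on opposite sides of 0. For Pcdhgb7 the same values were 0.29 (untreated) and −0.43 (induced), again with intervals on opposite sides of 0. For Pcdhga3 the log2 fold change of OB induction was 0.97 with control siRNA (13 and 23 counts) and −1.84 in the libraries labelled with DNMT1 siRNA (12 and 2 counts, a ratio of 0.16 with a counting interval from 0.0173 to 0.717). Each of these was singled out because the same contrast went one way in 1 pair of libraries and the opposite way in the other pair, and with 1 library per group the differences were not tested across conditions.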

How the results depend on the processing

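No paired analysis was possible because each group held 1 library with no replicate number in the labels, and only the additive fit below uses both pairs at once. No library was left out. Of 253 alternative values of the counts, medians, sums and shares 221 stayed within their limits. No member that met the rule changed sign. The median of the tested members in the OB pair, 0.06, became −0.05 with a filter of 5 CPM, and 2 values near 0 also crossed it (Pcdhb21 in the untreated pair and Pcdhgb6 in OB with control siRNA). No scaling moved the median of all genes by more than 0.0435. The counts of members that met the rule depended on the filter. With no filter, of 48 tested members 2 were lower in the OB pair and 1 in siDNMT1_OB against siDNMT1. Among all 27380 genes then tested, 391 and 515 were. With a mean of at least 0.5 CPM, 3 and 2 of 34 tested members were lower, against 290 and 435 of 14612 genes. With at least 5 CPM only 12 members were tested. Of these 12, 0 were higher in the untreated pair and 0 lower in the OB pair. In OB with control siRNA 9 of the 12 were higher, and in siDNMT1_OB against siDNMT1 3. Of the 10827 genes tested at that filter, 108, 72, 825 and 509 met the rule in the same order and direction. The additive edgeR fit gave 0 members for the siRNA label in either direction (lowest adjusted p of a member 0.378) and 16 higher for OB induction, where the rule gave 2 and 1 in the untreated and OB pair and 19 and 9 in the inductions. It differs in pooling the pairs and in having no size threshold. It also takes its spread from how far the 4 libraries, all of different groups, depart from additive effects. That is not the spread between replicate libraries, which cannot be estimated here. The part of each difference was not tested.

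Among the sums, leaving out Pcdhb16 gave a log2 fold change of 0.20 for beta in the OB pair. Leaving out Pcdhgc3 gave 0.30 for gamma in the untreated pair and 1.04 in OB with control siRNA. Leaving out members that overlap an outside gene gave 0.27, −0.13 and 0.93 for gamma in the untreated pair, the OB pair and OB with control siRNA. Alpha sums without Pcdhac2 gave no value where a library then had 0 counts. Per kilobase of unshared exon, a scale added after seeing the data, Pcdhb16 held 29.8%, 25.5%, 26.5% and 22.8% of beta in control, siDNMT1, OB and the library labelled siDNMT1_OB, and per kilobase of table length 25.96%, 27.1% and 23.5% in the last 3. Pcdhgc3 held 78.5%, 73.4%, 72.3% and 73.3% of gamma by unshared length and 71.7%, 65.8%, 64.9% and 65.5% by table length. TMM factors over all genes were also added after seeing the data. Of the named members, Pcdhb7 in the untreated pair passed the size threshold with total counts (1.002) and a prior count of 0.5 (1.06), Pcdhga4 in OB with control siRNA with 3 settings (1.008 to 1.038), and Pcdhb10 there missed it with a prior count of 5 (0.97). With the main filter of a mean of 1 CPM, the read test was not made for the 33 members under it, all 14 alpha genes among them. With no filter the test covered 48 members.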
